A study of Bos taurus with 27 samples.

Results

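The comparison described here set lymph nodes of Holstein-Friesian cattle on which adult ticks were feeding against nodes of the same breed with no tick attached. It rests on 6 of the 27 arrays of the study, chosen by their titles, 3 for adult feeding and 3 for baseline. The tick was Rhipicephalus microplus, the cattle tick, and Holstein-Friesian is a taurine dairy breed. The other 21 arrays covered larval feeding in the same breed and the baseline, larval and adult stages in Bonsmara, a composite breed, and Brahman, a zebu breed, each of the 9 groups holding 3 arrays. The labels call the replicates biological and give neither the age nor the sex of the animals, nor whether the same animals were sampled at each stage. RNA of a whole node biopsy was labelled with the red dye Cy5 and hybridised with the same pool of cattle superficial cervical lymph node RNA in the green dye Cy3. Every level below is therefore a deposited log2 ratio of 1 sample to that pool, and every difference is adult minus baseline unless another is named. A difference of 1 is a doubling if the base is 2 and the direction is sample over pool, which the dyes make likely but the table does not state.

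A draining lymph node receives cells, cytokines and tick saliva proteins from the bitten skin through the afferent lymph. In inflamed tissue, interleukin 1 and microbial products act through the transcription factor NF-kB to switch on neutrophil-attracting chemokines, interleukin 6 and prostaglandin synthesis. In the node itself, B cells that become plasma cells expand their endoplasmic reticulum, a step that draws on the chaperones of the unfolded protein response. Cattle breeds differ in how many ticks they carry, and the study's design asks how each tick stage differs from the uninfested node.

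Over 28927 features, of which 14495 were named genes and the rest unnamed probes kept singly, 0 (0.0%) passed an adjusted p of 0.05 in limma's moderated test. The lowest adjusted p was 0.198, reached by CXCL2 and PDIA3. An unadjusted p under 0.05 was found for 1413 features (4.88%), of which 790 were higher (2.73%) and 623 lower (2.15%) in adult-fed nodes. The 3 adult arrays lay above all 3 baseline arrays for 1398 features (4.83%) and below all of them for 1451 (5.02%). The values of single genes below are therefore measurements that did not pass the test. For a single gene, an exact permutation test of 3 arrays against 3 cannot give a two-sided p under 0.1. The labels give no sampling times and no uninfested nodes from the adult stage, so a change with time cannot be told apart from one with ticks. The median difference over all features was -0.0063, and the median standard error (SE) of a difference was 0.16.

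One adult array, replicate 2, stood apart from the other two in many of the genes below. Its free-text description names both tick stages, whereas its title and sample type say adult, and the same wording stands on replicate 2 of the adult group in the other breeds. Over all features it correlated at 0.296 with adult replicate 1 and at 0.24 with adult replicate 3, and at 0.333, 0.231 and 0.229 with baseline replicates 1, 2 and 3. Adult replicates 1 and 3 correlated at 0.406 with each other, and replicate 3 at 0.321 with baseline replicate 3. The mean correlation of adult replicate 2 with its own group was 0.268, and that of the baseline arrays with theirs was at most 0.188. With adult replicate 2 left out, 56 features (0.194%) passed the adjusted threshold, 53 of them higher, and values without it are given for genes in which it lay far from the other adult arrays. Adjusted p-values without it depend on that choice, made with the values known, and rest on 2 adult arrays, so they are not counted as support. Without adult replicate 1 or without adult replicate 3, 0 features passed. Baseline replicate 2 had the lowest mean correlation with its own group among the 6 arrays, 0.0853, and without it 4 features passed, 1 of them higher. Each biopsy is bulk tissue, so more cells of a type and more RNA per cell cannot be told apart in any difference below. Because each value is a ratio to a node pool, the table gives no absolute level against which the tissue label could be checked. The skin epithelium list had array medians of 0.01 to 0.06 in adult-fed nodes and of -0.02 to 0.06 at baseline.

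Inflammatory mediators were among the genes with the smallest p-values. Of 53 measured inflammatory cytokines and NF-kB genes, 0 passed the adjusted threshold, 17 were higher and 1 lower at an unadjusted p under 0.05, and 15 had all 3 adult arrays above all 3 baseline arrays (28.3%, against 4.83% of all features). At that unadjusted p, 2.73% of all features were higher and 2.15% lower. The median difference of the list was 0.19. CXCL2, a chemokine that attracts neutrophils, had log2 ratios of 0.46, 0.20 and 0.77 in adult-fed nodes, against -0.14, -0.34 and -0.19 at baseline. It averaged 0.48 ± 0.28 in adult-fed nodes and -0.23 ± 0.11 at baseline (SD, n = 3 each), a difference of 0.70 with an SE of 0.12, and both of its probes were higher. Its 2 groups did not overlap. CXCL3, of the same chemokine family, had 0.84, 0.44 and 0.21 in adult-fed nodes, against -0.37, -0.28 and -0.37 at baseline, again without overlap (difference 0.84, SE 0.19, limma adjusted p = 0.592).

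CXCL8, the main neutrophil chemokine of cattle, showed another pattern. It had 2.31, -0.43 and 1.75 in adult-fed nodes, against -0.29, -0.55 and -0.45 at baseline, a difference of 1.64 with an SE of 0.41 (limma adjusted p = 0.641). Replicates 1 and 3 stood far above the baseline arrays, and replicate 2 lay among them. Without replicate 2 the difference was 2.46, with an adjusted p of 4.18e-05. IL1RN, the soluble antagonist of the interleukin 1 receptor, was alike, with 1.79, -0.84 and 1.45 in adult-fed nodes, against -0.82, -0.37 and -0.47 at baseline. Its difference was 1.35 (SE 0.40, limma adjusted p = 0.832), and 2.17 without replicate 2.

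For the interleukin 1 cytokines themselves the groups did not overlap. IL1B had 0.76, 0.02 and 1.50 in adult-fed nodes, against -0.27, -0.22 and -0.55 at baseline (difference 1.10, SE 0.24, limma adjusted p = 0.592), and all 4 of its probes were higher. IL1A had 0.44, 0.32 and 0.49 in adult-fed nodes, against -0.15, 0.15 and 0.05 at baseline, a difference of 0.40 with an SE of 0.10. IL6, which drives acute phase and B cell responses, had 0.99, 0.05 and 1.96 in adult-fed nodes, against -0.16, -0.03 and -0.31 at baseline (difference 1.17, SE 0.32). Without replicate 2 the differences were 1.47 for IL1B (limma adjusted p = 0.0014) and 1.64 for IL6 (limma adjusted p = 0.0102). In IL1B and IL6 replicate 2 again gave the lowest adult value and the one nearest the baseline arrays, while in IL1A all adult arrays lay close together. PTGS2, the inducible cyclooxygenase of prostaglandin synthesis, had 0.45, 0.17 and 0.77 in adult-fed nodes, against -0.36, -0.23 and -0.25 at baseline (difference 0.75, SE 0.18).

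The monocyte-attracting chemokines had some of the widest gaps. CCL8 had 1.40, 0.45 and 2.01 in adult-fed nodes, against -1.48, -0.77 and -0.79 at baseline, a difference of 2.30 with an SE of 0.56 (limma adjusted p = 0.623). CCL2 differed by 1.33 (SE 0.39) and CCL4, which also attracts lymphocytes, by 0.93 (SE 0.25), each without overlap of the groups. SOD2, the mitochondrial superoxide dismutase and a classical NF-kB target, had 1.93, -0.15 and 1.79 in adult-fed nodes, against -0.31, -0.46 and -0.29 at baseline (difference 1.54, SE 0.44, limma adjusted p = 0.776), and without replicate 2 the difference was 2.21 (adjusted p = 0.0106). SOCS3, a feedback inhibitor of interleukin 6 signalling, differed by 1.30 (SE 0.42) with overlapping groups, since replicate 2 at -0.63 lay below baseline replicate 2 at -0.25.

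TNF and NFKBIA, of the same pathway, showed small differences. TNF had -0.09, -0.01 and -0.06 in adult-fed nodes, against 0.03, 0.27 and -0.02 at baseline, a difference of -0.14 with an SE of 0.16. NFKBIA, the inhibitor that NF-kB induces as its own brake, differed by 0.17 (SE 0.15). CSF3, the growth factor of neutrophils, was the 1 list member lower at an unadjusted p under 0.05, and its difference of -0.84 rested on adult replicate 1 at -2.67, the other adult arrays being at -0.06 and -0.09. Counted by array, 28, 22 and 33 of the 53 list members lay above all baseline arrays in adult replicates 1, 2 and 3, while 24.4%, 23.2% and 22.4% of all features did. Without replicate 2, 26 members lay above all baseline arrays in both other adult arrays, as did 10.8% of all features, and 20 were higher at an unadjusted p under 0.05, where 3.33% of all features were.

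**Figure D1:**
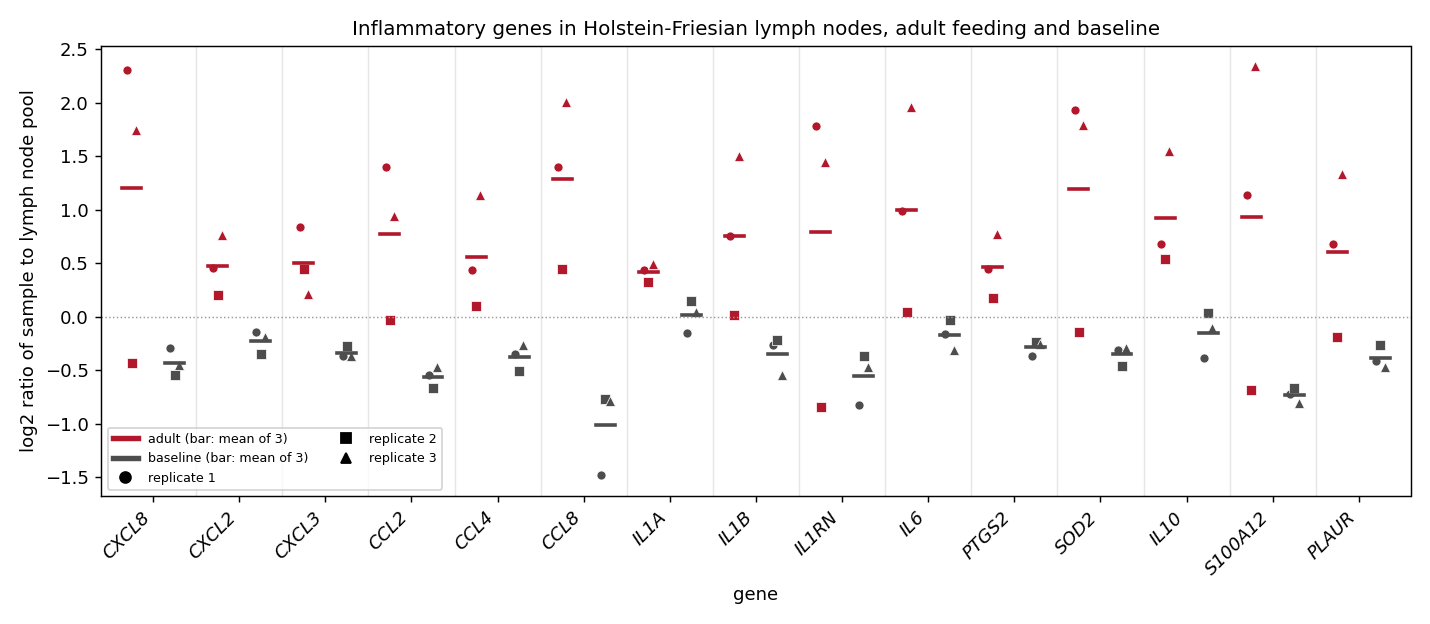
Log2 ratio to the lymph node pool (y axis) of 15 inflammatory genes (x axis) in each Holstein-Friesian array, adult feeding left of baseline for each gene, with a marker shape for each replicate and a bar at the mean of 3. CXCL2, CXCL3, CCL8, IL1A, PTGS2 and IL10 have all 3 adult arrays above baseline, while in CXCL8, IL1RN and S100A12 adult replicate 2 lies at -0.43, -0.84 and -0.68, within or below the spread of the baseline arrays.

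IL10, the main cytokine that dampens macrophage and dendritic cell activation, also had all adult arrays above baseline. It had 0.68, 0.54 and 1.55 in adult-fed nodes, against -0.38, 0.04 and -0.11 at baseline, a difference of 1.07 with an SE of 0.28 (limma adjusted p = 0.681). CTLA4, an inhibitory receptor of T cells, differed by 0.61 (SE 0.25) with overlapping groups, and FOXP3, the factor that defines regulatory T cells, by 0.03 (SE 0.21). Of the 26 measured genes of the list of regulatory T cells and inhibitory receptors, 2 were higher and 0 lower at an unadjusted p under 0.05 (2.73% and 2.15% of all features were).

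Of 25 measured genes of the neutrophil list, 4 were higher (2.73% of all features were) and 0 lower at an unadjusted p under 0.05, 0 had all adult arrays above baseline and 1 had all below, and the median difference was -0.03. Without replicate 2, 5 of the 25 had both other adult arrays above baseline and 4 had both below, as did 10.8% and 11.4% of all features. S100A12, a calcium-binding alarm protein of neutrophils and monocytes, had 1.14, -0.68 and 2.34 in adult-fed nodes, against -0.72, -0.67 and -0.80 at baseline (difference 1.67, SE 0.46, limma adjusted p = 0.707). CXCR1, a receptor for CXCL8, had 1.95, -0.34 and 0.66 in adult-fed nodes, against -0.32, -0.16 and -0.10 at baseline (difference 0.95, SE 0.31). Both were high in replicates 1 and 3, and replicate 2 lay within or below the baseline arrays. Without replicate 2 the differences were 2.47 for S100A12 (limma adjusted p = 0.0014) and 1.50 for CXCR1 (limma adjusted p = 0.00239). S100A9 differed by 0.61 (SE 0.27) and its partner S100A8 by 0.79 (SE 0.48), with the same array low, and S100A8 by 1.36 without replicate 2 but by 0.17 without replicate 3. CXCR2, also of this list, had 2.12, -0.41 and 0.48 in adult-fed nodes, against -0.36, -0.14 and -0.04 at baseline (difference 0.91, SE 0.37). Some other members had differences below 0. CATHL5, a cathelicidin of neutrophil granules, differed by -0.35 (SE 0.25) and by -0.15 without baseline replicate 2. LCN2, a granule protein that binds iron carriers, differed by -0.32 (SE 0.21) and by -0.037 without adult replicate 1. CD177, a neutrophil surface protein, differed by -0.20 (SE 0.20). Of the 25 differences of the list, 10 were above 0. The array medians of the whole neutrophil list lay between -0.08 and -0.04 in adult-fed nodes and between -0.15 and -0.04 at baseline, and the part of neutrophils in the inflammatory values was not tested.

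Among macrophage and lysosome genes, 7 of 43 measured members were higher and 2 lower at an unadjusted p under 0.05 (2.73% and 2.15% of all features were), and 7 had all adult arrays above baseline (4.83% of all features did). Without adult replicate 1, 4 members were higher at that p. PLIN2, which coats lipid droplets, had 1.14, 0.45 and 1.53 in adult-fed nodes, against -0.57, -0.03 and -0.09 at baseline, a difference of 1.27 with an SE of 0.27 (limma adjusted p = 0.592). MRC1, the mannose receptor of macrophages, had 1.74, 0.77 and 0.64 in adult-fed nodes, against -0.11, 0.04 and -0.03 at baseline (difference 1.08, SE 0.38). CD163, the macrophage receptor for haemoglobin bound to haptoglobin, had 1.60, 0.59 and 0.47 in adult-fed nodes, against -0.26, 0.35 and -0.48 at baseline (difference 1.02, SE 0.37). In these 3 genes, unlike CXCL8, replicate 2 lay above every baseline array. The lysosomal proteases LGMN and CTSB and the ferritin heavy chain FTH1 differed by 0.74, 0.73 and 0.54, each without overlap.

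The 2 macrophage genes that were lower ran the other way, in replicates 1 and 3. SLC40A1, the iron exporter ferroportin, had -1.10, 0.78 and -2.10 in adult-fed nodes, against -0.03, 0.36 and 0.52 at baseline, a difference of -1.09 with an SE of 0.44 (limma adjusted p = 0.964). Without replicate 2 it was -1.88, with an adjusted p of 0.00813. SIGLEC1, the sialic acid receptor of lymph node sinus macrophages, had -0.99, 0.62 and -1.50 in adult-fed nodes, against 0.08, 0.83 and 0.25 at baseline (difference -1.01, SE 0.41), and the difference was -1.63 without replicate 2. CD14, the lipopolysaccharide co-receptor of monocytes, differed by 0.82 (SE 0.26) and by 1.17 without replicate 2. Of the 25 measured genes of the Toll-like receptor list, which shares CD14, 3 were higher and 3 lower at an unadjusted p under 0.05 (2.73% and 2.15% of all features were). Among them, CLEC7A, a receptor for fungal glucans, differed by 1.24 (SE 0.41) without overlap, and TLR10 by -0.72 (SE 0.27).

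Without replicate 2, 51 of the 56 features past the threshold were named genes and 48 of those were higher. Adult replicate 2 lay within the range of the baseline arrays in 24 of the 53 higher features, above all baseline arrays in 19 and below all of them in 10. SDS, serine dehydratase, had the widest gap, with 2.38, -1.80 and 2.45 in adult-fed nodes, against -2.36, -1.57 and -1.59 at baseline. Its difference was 2.85 (SE 0.72, limma adjusted p = 0.641) and 4.26 without replicate 2. ASRGL1, an asparaginase-like enzyme, had 1.89, -0.92 and 3.01 in adult-fed nodes, against -0.96, -0.88 and -0.85 at baseline (difference 2.22, SE 0.60). TGM3, a transglutaminase best known from epidermis, had 2.71, -0.88 and 0.93 in adult-fed nodes, against -0.81, -0.71 and -0.78 at baseline, and KRT14, a keratin of basal epidermis, differed by -0.18 (SE 0.12). At an unadjusted p under 0.05, 2.73% of all features were higher and 2.15% lower. Of 23 measured genes of the skin epithelium list, 1 was higher and 0 lower at that p. That gene was CDH1, which differed by 0.46 (SE 0.13) without overlap, and the median difference of the list was -0.03. PF4, a chemokine of platelet granules, had 3.59, -0.71 and 1.24 in adult-fed nodes, against -0.80, -1.09 and 0.03 at baseline. It was the 1 gene of 19 measured in the red blood cell and platelet list that was higher at an unadjusted p under 0.05 (2.73% of all features were). The median difference of that list was -0.02, and 9 of the 19 differences were above 0. SDS, ASRGL1 and TGM3 were picked after their values were seen. Without replicate 2 the differences were 3.35 for ASRGL1, 2.59 for TGM3 and 3.03 for PF4. These 4 genes share high values in adult replicates 1 and 3, and a value within or just below the baseline range in replicate 2. All 4 are among the features that passed only without replicate 2, a choice that favours this pattern.

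The same arrays stood high for genes of sugar breakdown, a list added after the values were seen. Of 25 measured genes of glycolysis and glucose transport, 8 were higher (2.73% of all features were) and 0 lower at an unadjusted p under 0.05, 3 had all adult arrays above baseline (4.83% of all features did), and the median difference was 0.21. Without replicate 2, 16 of the 25 lay above baseline in both other adult arrays, as did 10.8% of all features. The list was added with these values known, so its shares are not counted as support. SLC2A3, a glucose transporter, had 0.89, 0.09 and 1.43 in adult-fed nodes, against -0.23, 0.04 and -0.05 at baseline (difference 0.88, SE 0.21, and 1.24 without replicate 2), and all 6 of its probes were higher. LDHA, which makes lactate, had 1.16, -0.32 and 1.53 in adult-fed nodes, against 0.05, -0.75 and 0.08 at baseline (difference 1.00, and 1.55 without replicate 2). GAPDH, often used as a control gene, differed by 0.55 (SE 0.14) with all 8 of its probes higher, and by 0.77 without replicate 2 with an adjusted p of 0.00172. The list of oxidative phosphorylation had 0 of 35 measured members at an unadjusted p under 0.05 in either direction.

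**Figure D2:**
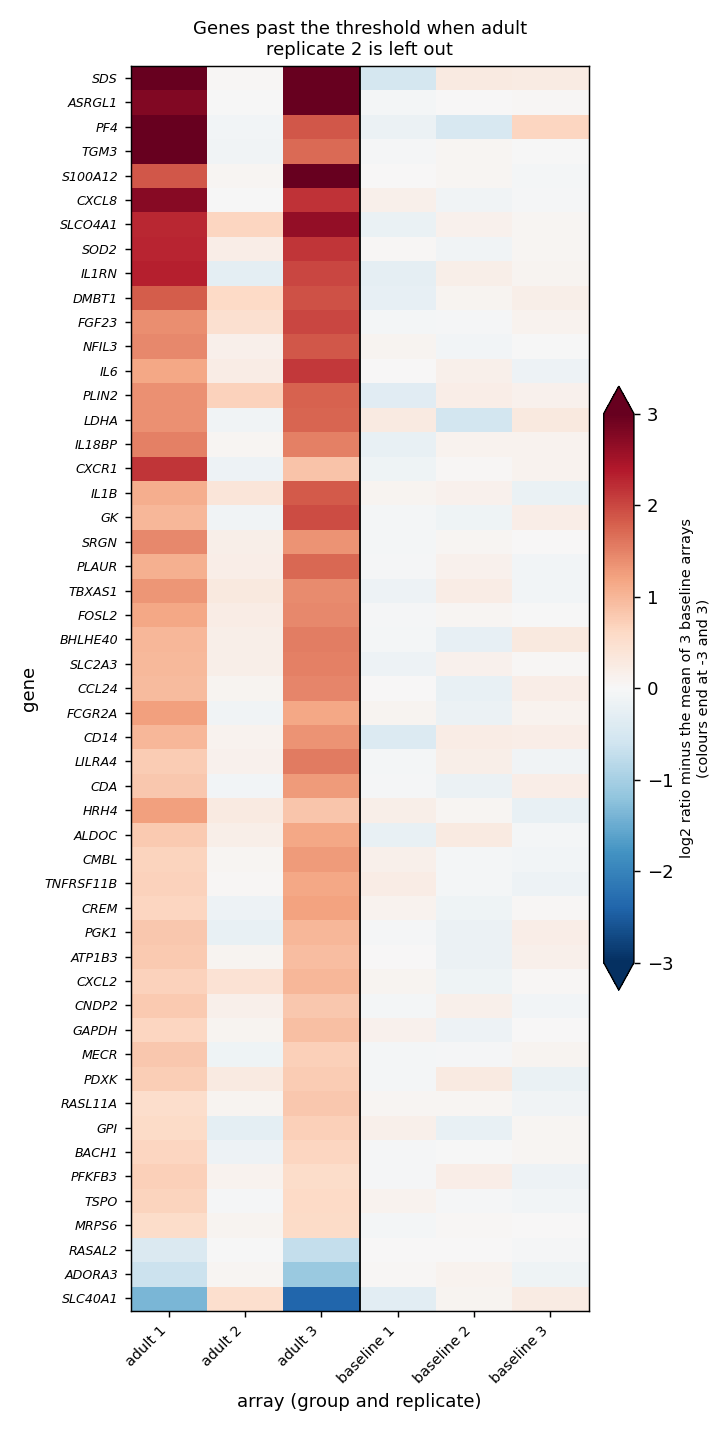
Log2 ratio minus the mean of the 3 baseline arrays (colour, ending at -3 and 3) for the 51 named genes (rows, ordered by the mean of adult replicates 1 and 3) that pass the threshold when adult replicate 2 is left out, in 6 Holstein-Friesian arrays (columns, adult left of baseline). The rows were chosen for high or low values in adult replicates 1 and 3, and the column of adult replicate 2 is pale for most of them.

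The unfolded protein response list held the largest share of genes higher without overlap, among 31 lists and the added glycolysis list. Of 30 measured members, 15 were higher and 0 lower at an unadjusted p under 0.05, and 15 had all adult arrays above all baseline arrays (50%, against 4.83% of all features). At that unadjusted p, 2.73% of all features were higher and 2.15% lower. The median difference was 0.40, and 28 of 30 differences were above 0. The count at an unadjusted p under 0.05 was 5 without adult replicate 1, 4 without adult replicate 3 and 6 without baseline replicate 2, and 18 without adult replicate 2. With that last array left out, 24 members had the other adult arrays above all baseline arrays, as did 10.8% of all features. PDIA3, which pairs cysteines in glycoproteins held by calnexin, had 0.62, 0.88 and 0.94 in adult-fed nodes, against -0.19, -0.00 and -0.18 at baseline. It averaged 0.81 ± 0.17 in adult-fed nodes and -0.12 ± 0.10 at baseline (SD, n = 3 each), a difference of 0.94 with an SE of 0.17, measured by 1 probe. After quantile normalization of the arrays it was the only feature that passed the threshold.

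HSPA5, the master chaperone BiP, had 0.63, -0.14 and 0.62 in adult-fed nodes, against -0.38, -0.63 and -0.29 at baseline (difference 0.80, SE 0.24, limma adjusted p = 0.908). PDIA4, another disulphide isomerase, had 0.59, -0.34 and 0.28 in adult-fed nodes, against -0.64, -1.22 and -0.44 at baseline (difference 0.94, SE 0.40). XBP1, the factor that drives chaperone and secretory genes in plasma cells, had 0.55, -0.37 and 0.37 in adult-fed nodes, against -0.43, -0.92 and -0.44 at baseline (difference 0.78, SE 0.30). In all 3 the groups did not overlap, adult replicate 2 was the lowest adult array and baseline replicate 2 the lowest of all. CRELD2, MANF, DNAJB11 and CALR, secreted or resident proteins of the endoplasmic reticulum, differed by 0.87, 0.71, 0.73 and 0.63, and EIF2AK3, a sensor of misfolded proteins, by 0.22.

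The plasma cell and immunoglobulin list was less even. Of 24 measured members, 5 were higher (2.73% of all features were) and 0 lower at an unadjusted p under 0.05, 6 had all adult arrays above baseline (4.83% of all features did), and the median difference was 0.35. PRDM1, the factor that commits B cells to plasma cells, had 0.32, -0.19 and 0.22 in adult-fed nodes, against -0.28, -0.51 and -0.24 at baseline (difference 0.46, SE 0.18). The array medians of the list were 0.09, -0.19 and -0.07 in adult-fed nodes, against -0.39, -0.57 and -0.22 at baseline, so they did not overlap, and the part of plasma cells in the chaperone values was not tested.

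IGHE, the constant region of the IgE heavy chain, had the largest difference of any gene named by the rule. It had -0.12, 0.02 and 0.22 in adult-fed nodes, against -2.33, -2.87 and -3.63 at baseline. The groups did not overlap and the difference was 2.99, but its SE was 1.25 and its limma adjusted p 0.964, because the fit shares its spread with groups in which the gene varied widely. In larval nodes of the same breed, for example, it stood at -4.86, -3.44 and 2.44. The gene is measured by 1 probe. IgE is the antibody class that arms mast cells and basophils, and of 14 measured genes of the eosinophil, basophil and mast cell list 1 was higher at an unadjusted p under 0.05 (2.73% of all features were) and 3 had all adult arrays above baseline (4.83% of all features did). That 1 gene was IL5RA, the eosinophil receptor chain for interleukin 5, with a difference of 0.64 (SE 0.18), which had 0.19, 0.14 and 1.12 in adult-fed nodes, against -0.29, -0.10 and -0.09 at baseline. Without adult replicate 3 its difference was 0.32. The type 2 cytokines IL4 and IL13 differed by -0.02 (SE 0.15) and 0.17 (SE 0.18). In their list of type 2, alarmin and IL17 genes, 29 were measured and the median difference was 0.045. At an unadjusted p under 0.05, 3 of them were higher and 0 lower (2.73% and 2.15% of all features were). These were IL13RA1, with 0.52 (SE 0.21) and no overlap, and the chemokines CCL24 and CCL26. The chemokines differed by 0.83 (SE 0.26) and 0.91 (SE 0.43) with overlapping groups. Antibody genes other than IGHE had smaller differences. IgCgamma, the IgG constant region, had -1.32, -1.32 and -2.86 in adult-fed nodes, against -1.95, -2.31 and -0.21 at baseline (difference -0.34, SE 0.70). JCHAIN, which joins IgM and IgA, differed by 0.35 (SE 0.66).

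**Figure D3:**
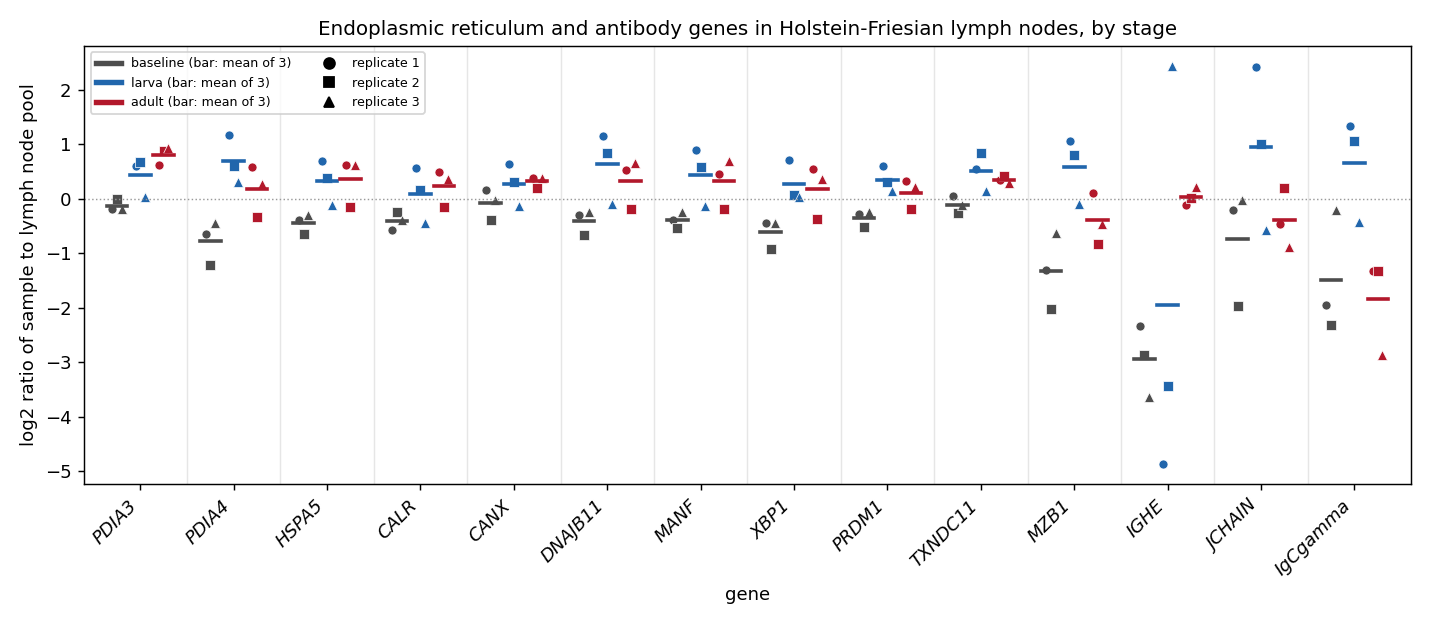
Log2 ratio to the lymph node pool (y axis) of 14 genes of the endoplasmic reticulum and of antibody synthesis (x axis) in Holstein-Friesian nodes at baseline, with larvae and with adult ticks, left to right for each gene, with a marker shape for each replicate and a bar at the mean of 3. IGHE lies between -0.12 and 0.22 in the 3 adult arrays and between -3.63 and -2.33 at baseline, while larval arrays reach from -4.86 to 2.44.

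The B cell list had a median below 0. Of 27 measured genes of B cells and germinal centres, 0 were higher and 3 lower (2.15% of all features were) at an unadjusted p under 0.05, and the median difference was -0.27. CR2, the complement receptor of B cells and follicular dendritic cells, had -0.58, -0.26 and -0.72 in adult-fed nodes, against 0.11, -0.07 and 0.11 at baseline (difference -0.57, SE 0.23). CD79A, the signalling chain of the B cell receptor, differed by -0.52 (SE 0.23), again without overlap. The median of this list was -0.09 without baseline replicate 1. Of 25 measured T cell genes, 0 were higher and 1 lower at that p. It was LCK, the kinase of the T cell receptor, at -0.23, -0.16 and -0.21 in adult-fed nodes, against -0.01, 0.31 and 0.08 at baseline (difference -0.33, SE 0.15). CD3E differed by 0.12 (SE 0.16). Among 30 measured genes of cytotoxic and NK cells, 0 reached an unadjusted p under 0.05, with KLRK1, the activating receptor NKG2D, at a difference of -0.33 (SE 0.23) and GZMB, the protease granzyme B, at -0.01 (SE 0.27). The 11 measured genes of gamma delta T cells, the 36 of the cell cycle, the 33 ribosomal proteins and the 7 of MHC class II also had 0 members at that p.

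The chemokines CXCL9 and CXCL10, induced by interferon gamma, varied more between adult arrays than between the group means. CXCL10, a chemokine for activated T cells, had -1.41, 0.17 and -2.05 in adult-fed nodes, against -0.60, -0.89 and -0.62 at baseline (difference -0.39, SE 0.43). CXCL9 had -1.29, -0.58 and -2.07 in adult-fed nodes, against -0.99, -1.51 and -1.30 at baseline (difference -0.05, SE 0.47). In both, replicate 2 was the highest adult array. IFNG itself differed by 0.14 (SE 0.19) and IDO1, which breaks down tryptophan, by 0.33 (SE 0.38). Of 34 measured genes stimulated by type I interferon, 2 were higher and 1 lower at an unadjusted p under 0.05 (2.73% and 2.15% of all features were). All adult arrays lay above baseline in 4 of them (4.83% of all features), and 26 differences were above 0. Counted by array, 16, 25 and 10 members lay above all baseline arrays in adult replicates 1, 2 and 3. Of all features, 24.4%, 23.2% and 22.4% did, so replicate 2 was the array highest for this list.

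Immediate early genes, which cells switch on within minutes of a stimulus, were higher in part. Of 29 measured members, 7 were higher (2.73% of all features were) and 0 lower at an unadjusted p under 0.05, and 9 had all adult arrays above baseline (4.83% of all features did). The count at that p was 3 without adult replicate 3 and 4 without baseline replicate 1. JUNB, a subunit of the AP-1 factor, had 0.47, 0.46 and 1.00 in adult-fed nodes, against 0.09, -0.14 and 0.10 at baseline (difference 0.63, SE 0.21). FOSL2, another subunit, differed by 0.94 (SE 0.28) with all 6 of its probes higher, EGR1 by 0.68 (SE 0.31) and FOS by 0.49 (SE 0.54). In the heat shock list 4 of 18 measured genes were higher at that p (2.73% of all features were) and 0 lower. All adult arrays lay above baseline in 1 of the 18 (5.56%), near the 4.83% of all features. That gene was the chaperone HSPH1, with a difference of 0.84 (SE 0.33). HSPA8, another chaperone higher at that p, differed by 0.64 (SE 0.28) with overlapping groups.

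Of 26 measured matrix proteases and inhibitors, 8 were higher (2.73% of all features were) and 0 lower at an unadjusted p under 0.05, and 5 had all adult arrays above baseline (4.83% of all features did). PLAUR, the receptor that focuses urokinase on the cell surface and a member of the complement and coagulation list, had 0.69, -0.19 and 1.34 in adult-fed nodes, against -0.42, -0.26 and -0.47 at baseline (difference 0.99, SE 0.22, limma adjusted p = 0.592), and without replicate 2 the difference was 1.39 (adjusted p = 6.44e-05). MMP14, a membrane-bound collagenase, and TIMP1, an inhibitor of such enzymes, differed by 0.59 (SE 0.19) and 0.91 (SE 0.36) with overlapping groups, and MMP12, the elastase of macrophages, by 0.91 (SE 0.30) without overlap. Of 33 measured genes of fibrillar and microfibrillar matrix, 5 were higher and 0 lower at that p, and 7 had all adult arrays above baseline. COL6A1, a chain of type VI collagen, had 0.26, -0.10 and 0.04 in adult-fed nodes, against -0.34, -0.77 and -0.55 at baseline (difference 0.62, SE 0.17), and COL6A2 differed by 0.37. The type I and type III collagen chains COL1A1 and COL3A1 differed by 0.70 (SE 0.47) and 0.80 (SE 0.44), their groups not overlapping. VEGFA, a growth factor of blood vessels, differed by 0.81 (SE 0.25), also without overlap. It was the 1 gene of 29 measured in the list of blood and lymphatic endothelium that was higher at that p. Another 1 of the 29 was lower, and these shares were near those of all features (2.73% higher and 2.15% lower).

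**Figure D4:**
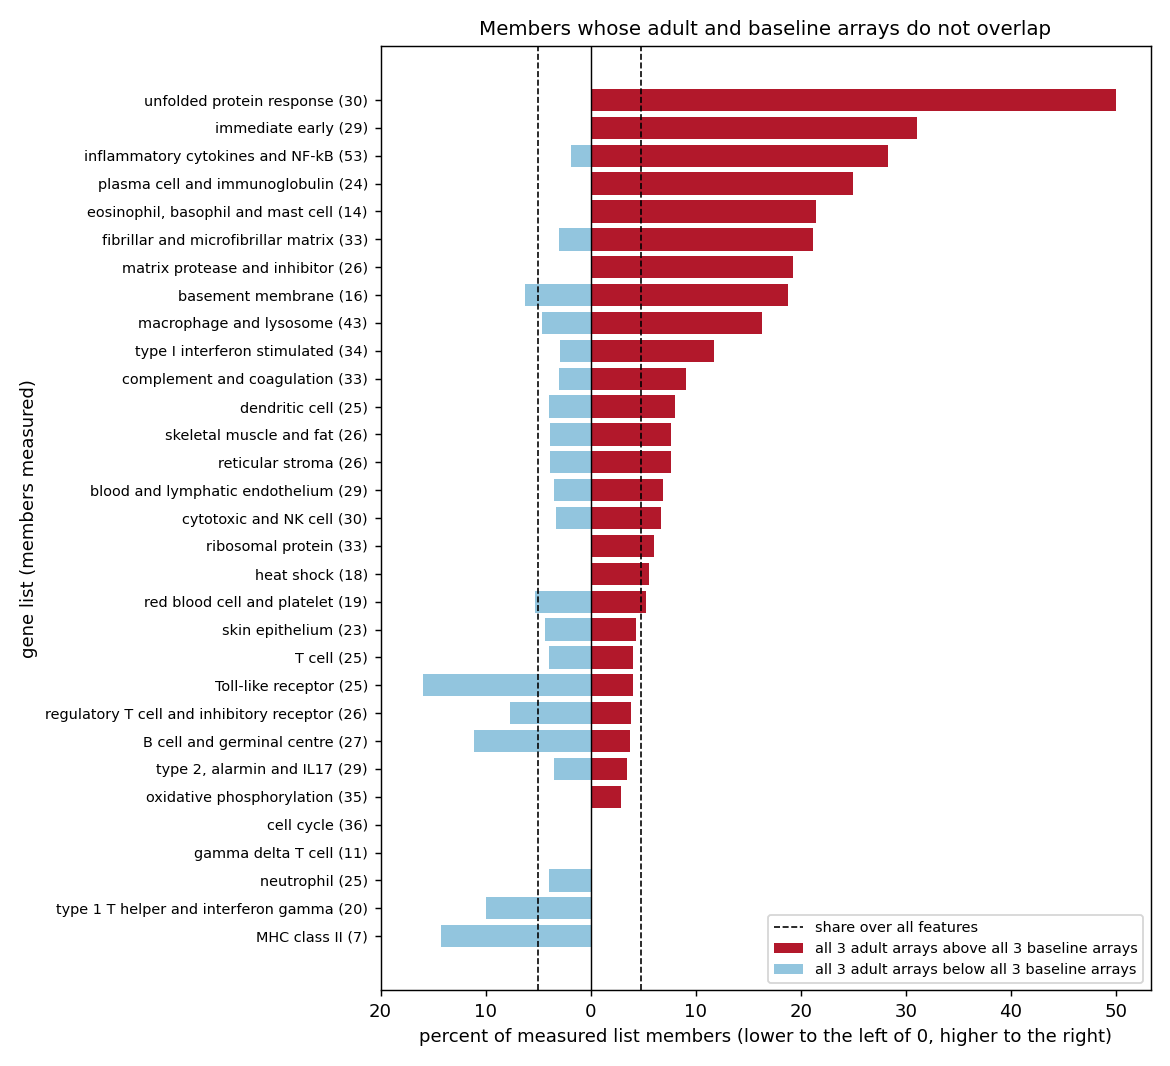
Percent of the measured members of each of 31 gene lists (rows, with the number measured, the added glycolysis list left out) whose 3 adult arrays lay all above (red, right of 0) or all below (blue, left of 0) the 3 baseline arrays. Dashed lines mark the shares over all 28927 features, 4.83% above and 5.02% below, and the unfolded protein response list reaches 50%.

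By the rule for named genes, the 12 largest differences in each direction were taken among genes with an unadjusted p under 0.05 and no overlap of the groups. The higher ones were IGHE, CCL8, SLCO4A1, CISH, SOD2, DMBT1, SSC4D, CCL2, FGF23, PLIN2, RIDA and CLEC7A. SLCO4A1, an organic anion transporter, had 1.17, -0.43 and 1.55 in adult-fed nodes, against -1.27, -0.94 and -1.02 at baseline (difference 1.84, SE 0.49, and 2.44 without replicate 2). FGF23, a hormone of phosphate balance, had 0.51, -0.42 and 1.11 in adult-fed nodes, against -0.96, -0.94 and -0.79 at baseline (difference 1.30, SE 0.26), and DMBT1, a scavenger receptor of mucosal surfaces, differed by 1.44 (SE 0.33). SSC4D, a scavenger receptor relative, was even across its group, at 0.72, 0.71 and 0.72 in adult-fed nodes, against -0.61, -0.51 and -0.99 at baseline (difference 1.42, SE 0.39). CISH, an inhibitor of cytokine signalling, differed by 0.74 without replicate 2, which stood at 3.74, the other adult arrays being at 0.59 and 1.22. RIDA rested on baseline replicate 2 at -1.94.

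The 12 lower ones mostly rested on 1 array. SIRT3, a mitochondrial deacetylase, and LYRM2 had adult replicate 1 at -2.24 and -2.04, the other adult arrays lying between -0.33 and -0.12. LOXL4, PADI1, RAX2, EPHA10 and TMCO2 had baseline replicate 1 at 2.91, 2.51, 2.10, 1.73 and 1.60, the other baseline arrays lying between -0.09 and 0.24. UNC93B1, which carries nucleic acid-sensing Toll-like receptors to endosomes, was even, at -0.34, -0.35 and -0.45 in adult-fed nodes, against 0.69, 0.19 and 0.27 at baseline (difference -0.76, SE 0.16, limma adjusted p = 0.592). NAPSA, an aspartic protease, CIRBP, an RNA-binding protein of the cold response, PVALB and ZNF296 differed by -0.77, -0.70, -0.76 and -0.71.

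Adult feeding was also set against larval feeding within the breed, where 1 feature (0.00346%) passed the adjusted threshold, an unnamed probe, and 1377 (4.76%) had an unadjusted p under 0.05. The named genes with the smallest p were all higher in adult-fed nodes. SEC23A, a coat protein of vesicles leaving the endoplasmic reticulum, had 0.47, 0.39 and 0.45 in adult-fed nodes, against 0.05, -0.25 and -0.21 in larval nodes (difference 0.57, SE 0.11, limma adjusted p = 0.314). CNDP2, a dipeptidase, differed by 0.82, PLIN2 by 1.35 and NGEF by 0.70, at adjusted p-values of 0.314 to 0.331. IL10 differed by 1.33 (SE 0.28, limma adjusted p = 0.331), with larval nodes at -0.23, -0.50 and -0.50. CXCL8 stood at -0.25, -0.32 and -0.35 in larval nodes, a difference of 1.51 (SE 0.41, limma adjusted p = 0.703) that comes from adult replicates 1 and 3.

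Since the adult and larval comparisons share their baseline arrays, their values are only set side by side. The median difference from baseline of the inflammatory list was 0.19 with adult ticks and 0.02 with larvae, and that of the unfolded protein response list was 0.40 with adult ticks and 0.49 with larvae. For HSPA5 the difference from baseline was 0.80 with adult ticks and 0.76 with larvae, for COL1A1 0.70 and 1.72, and for JCHAIN 0.35 and 1.68. The difference of COL1A1 between adult and larval feeding was -1.01 (SE 0.47), and the larval value included replicate 3, which had a mean correlation of -0.0854 with its group. Between larva and baseline 1 feature (0.00346%) passed, the same unnamed probe, and 1721 (5.95%) had an unadjusted p under 0.05.

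The response to adult ticks was compared with the responses in the other 2 breeds, each against its own baseline. For the difference between the Holstein-Friesian response and the mean of the other breeds, 0 of 28927 features (0.0%) passed the adjusted threshold and 1715 (5.93%) had an unadjusted p under 0.05. Against Bonsmara alone these counts were 0 (0.0%) and 2074 (7.17%), and against Brahman alone 0 (0.0%) and 1570 (5.43%). Without Holstein-Friesian adult replicate 2, 15, 16 and 3 features passed in these 3 comparisons. Across features, which are not independent replicates, the Holstein-Friesian response correlated at 0.0486 with that of Bonsmara and at 0.151 with that of Brahman, and no arrays are shared between them.

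PDIA3 had the smallest p against the mean of the other breeds, with a response of 0.94 in Holstein-Friesian nodes, against -0.26 in Bonsmara and -0.16 in Brahman nodes, and a difference of responses of 1.15 (SE 0.21, limma adjusted p = 0.238). UNC93B1 had a response of -0.76 in Holstein-Friesian nodes, against 0.28 in Bonsmara and 0.17 in Brahman nodes (difference of responses -0.99, SE 0.20). CXCL11, another chemokine for activated T cells, had a response of 0.65 in Holstein-Friesian nodes, against -2.19 in Bonsmara and -0.76 in Brahman nodes. Its difference of responses was 2.12 against both (SE 0.44, limma adjusted p = 0.413) and 2.84 against Bonsmara (limma adjusted p = 0.144), where the gene fell with adult ticks (limma adjusted p = 0.0281). CLUL1 had a difference of responses of 0.64 against the mean of the other breeds, and WASF1 one of 0.89 against Bonsmara. Against Brahman the smallest p-values belonged to CAMK2A, PARP14 and RPS27L beside PDIA3, all at an adjusted p of 0.864.

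CXCL8, IL1B and SOD2 had larger responses in Holstein-Friesian nodes, though 0 of the differences of responses passed. CXCL8 had a response of 1.64 in Holstein-Friesian nodes, against 0.09 in Bonsmara and -0.40 in Brahman nodes (difference of responses 1.79, SE 0.50, limma adjusted p = 0.781). IL1B had 1.10, against 0.03 in Bonsmara and 0.39 in Brahman nodes, and SOD2 had 1.54, against -0.34 in Bonsmara and 0.18 in Brahman nodes. The list medians were 0.19 in Holstein-Friesian nodes, against 0.09 in Bonsmara and 0.16 in Brahman nodes. IGHE was higher with adult ticks in each breed, by 2.99 in Holstein-Friesian nodes, 2.39 in Bonsmara nodes and 3.46 in Brahman nodes, and 0 of the 3 differences passed.

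**Figure D5:**
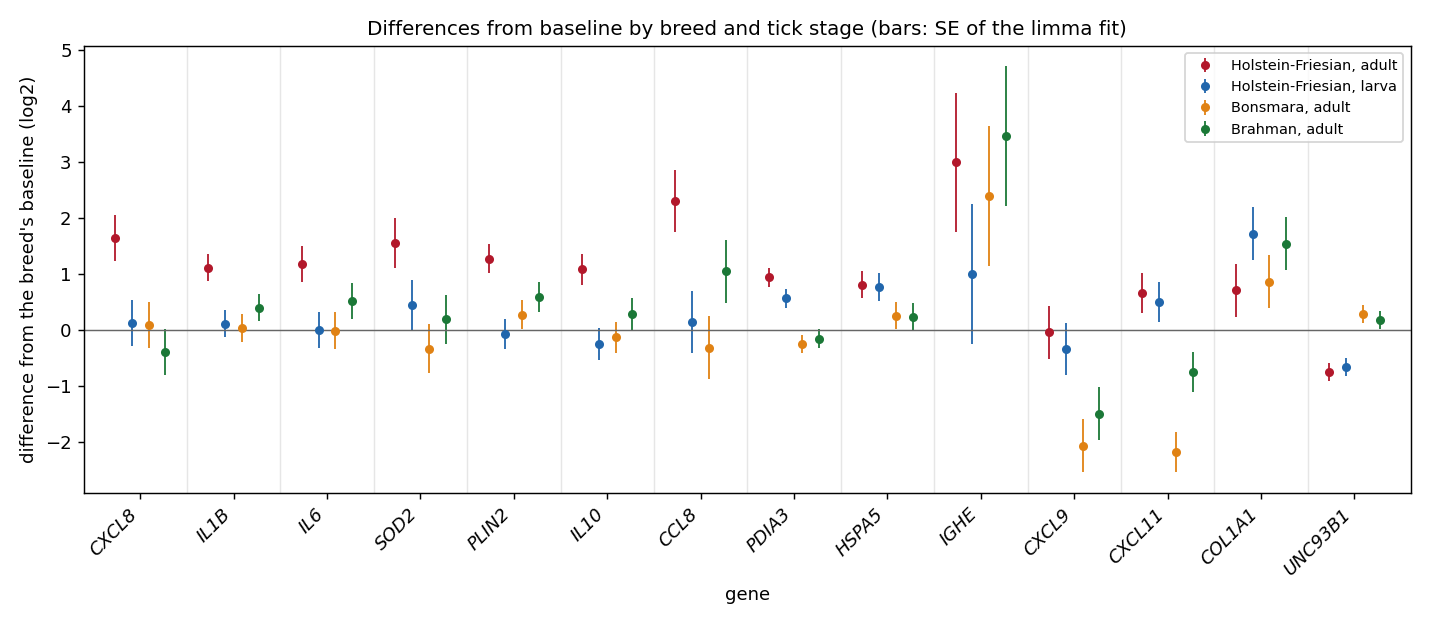
Difference from the breed's own baseline in log2 units (y axis, points with bars of 1 SE from the limma fit) for 14 genes (x axis), in Holstein-Friesian nodes with adult ticks, Holstein-Friesian nodes with larvae, Bonsmara nodes with adult ticks and Brahman nodes with adult ticks. CXCL8 reads 1.64 with adult ticks in Holstein-Friesian nodes and 0.12, 0.09 and -0.40 in the others, while IGHE lies at 2.39 or above with adult ticks in all 3 breeds.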

How the data were processed

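Values of 27 arrays were used as the authors deposited them, as log2 ratios of sample to pool. Limma is named in the submitters' processing notes. Its version and the steps of background correction and normalization were not given in the sources used here, and as the table holds no intensities, how far a probe stood above background is unknown. The number of arrays limits the precision. Probes (45220) were named through the platform table and the RefSeq gene table of ARS-UCD2.0 (30788 with 1 symbol), and probes of a gene were averaged. Limma 3.58.1, run in R 4.3.3, fitted group means to all 27 arrays (18 residual and 3.86 prior degrees of freedom). Contrasts were tested two-sided with Benjamini-Hochberg adjustment over 28927 features, in code tested on simulated data. P-values measure the spread between arrays. Other scalings, array sets, probe summaries and arrays left out were tried.

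Members, lists and tests were chosen with earlier results of these data known, and lists are described by counts and medians alone. Genes were named as the 12 largest differences in each direction without overlap and at an unadjusted p under 0.05, up to 4 members of a list by smallest p (12 for lists with a high share without overlap), the 4 smallest p-values of each other contrast, and a set named whatever their value. SDS, ASRGL1 and TGM3, and the glycolysis list with LDHA, GAPDH and SLC2A3, were picked after their values were seen. Same-numbered adult and baseline arrays had correlated deviations of 0.0131, 0.099 and 0.154, against -0.167 to 0.0465 for different-numbered ones. These values do not settle whether the numbers are pairs, and the labels do not say so. The numbers were therefore not taken as pairs, and a block by replicate was tried as another setting.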

Additional observations from a re-analysis of the deposited data

Results flagged for a closer look

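Of the results tested between tick stages in Holstein-Friesian nodes, 1 differed past the adjusted threshold. An unnamed probe had -0.35, -0.48 and -0.76 in adult-fed nodes, against 0.77, 0.37 and 0.38 in larval nodes, a difference of -1.04 (SE 0.14, limma adjusted p = 0.00346). Its baseline values were -0.30, -0.40 and -0.40, so the larval arrays stood above both other stages. The groups of 3 arrays are too small for a test of single outlying samples.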

How the results depend on the processing

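Under 20 other settings, 0 features passed in adult against baseline except without adult replicate 2 (56), without baseline replicate 2 (4) and after quantile normalization (1, PDIA3), and with the sign turned only directions change. Leaving out 1 of the Holstein-Friesian adult and baseline arrays gave counts of 0 to 56 for adult against baseline, 0 to 42 for adult against larva, 0 to 4 for larva against baseline, 0 to 15 against the mean of the other breeds, 0 to 16 against Bonsmara and 0 to 3 against Brahman. The cause of these shifts was not tested. Adult against larva gave 0 with named genes alone or the 9 Holstein-Friesian arrays alone, and 3 without larval replicate 3. Larva against baseline gave 6 without that array, and 0 with scaled arrays, single probes, named genes alone, without Bonsmara larval replicate 3, after quantile normalization, with the replicate block, with the 9 arrays alone and with the more variable features alone. Against the mean of the other breeds, array weights gave 2 and quantile normalization 1, and against Bonsmara array weights gave 11.

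The replicate block gave 0 features past the threshold in adult against baseline, with 1378 at an unadjusted p under 0.05, where the unblocked fit gave 1413. Since 0 features passed in the unblocked fit too, there was no call of a named gene for the block to change. The count at an unadjusted p under 0.05 was 2184 with each probe kept singly, 806 with named genes alone and 787 with the more variable features alone. Higher members at an unadjusted p under 0.05 numbered 14 to 20 in the inflammatory list and 4 to 18 in the unfolded protein response list when 1 of these arrays was left out.

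Of the differences named, 10 turned sign with a single array left out, also larger ones such as CSF3 (-0.84 with all arrays), with ranges of -0.069 to 0.24 (CD3E), -1.28 to 0.025 (CSF3), -1.03 to 0.084 (CXCL10), -0.41 to 0.33 (CXCL9), -0.13 to 0.27 (FOXP3), -0.13 to 0.10 (GZMB), -0.016 to 0.29 (IL13), -0.16 to 0.17 (IL4), -0.76 to 0.30 (IgCgamma) and -0.27 to 0.70 (JCHAIN). FOXP3 was -0.018 with scaled arrays and -0.12 after quantile normalization. IL4 was 0.056 with array weights, 0.017 with scaled arrays and 0.029 after quantile normalization.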

Other observations

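Among the genes past the threshold only without adult replicate 2, those in these paragraphs, except CCL24, were picked after their values were seen. NFIL3, a transcription factor induced by cytokines, had 1.05, -0.24 and 1.47 in adult-fed nodes, against -0.31, -0.48 and -0.40 at baseline. BHLHE40, a repressor that restrains IL10 in mice, had 0.61, -0.22 and 1.14 in adult-fed nodes, against -0.44, -0.63 and -0.10 at baseline. SRGN, the proteoglycan that packs secretory granules, had 1.32, 0.05 and 1.24 in adult-fed nodes, against -0.19, -0.05 and -0.11 at baseline. In each of these genes adult replicates 1 and 3 stood clear of the baseline arrays, and replicate 2 was the lowest adult array. Choosing genes that passed only without replicate 2 favours this pattern, so it is not a separate result.

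FCGR2A, a receptor for IgG, had 0.89, -0.45 and 0.83 in adult-fed nodes, against -0.25, -0.51 and -0.24 at baseline. IL18BP, a decoy that binds interleukin 18, had 1.08, -0.37 and 1.09 in adult-fed nodes, against -0.65, -0.32 and -0.32 at baseline. TNFRSF11B, the decoy receptor osteoprotegerin, had 0.51, -0.14 and 0.98 in adult-fed nodes, against 0.03, -0.25 and -0.33 at baseline. CCL24, a chemokine for eosinophils, had 0.85, -0.01 and 1.37 in adult-fed nodes, against -0.09, -0.32 and 0.10 at baseline. Of the 3 features that were lower, ADORA3, an adenosine receptor, had -0.35, 0.36 and -0.82 in adult-fed nodes, against 0.33, 0.40 and 0.16 at baseline. No gene in these paragraphs passed the threshold with all 6 arrays.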
